A study of Mus musculus with 9 samples.

Results

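The 10 genes described here carry the insulin and insulin-like growth factor signal from the cell surface to the FoxO transcription factors and the muscle ubiquitin ligases that FoxO factors switch on. They are Insr, Irs1, Irs2, Igf1r, Pik3r1, Akt2, Foxo1, Foxo3, Fbxo32 and Trim63, taken by symbol from the 13539 genes of the deposited table, where each has 1 row. Each was read in 3 groups of 3 heart samples from male mice aged 12 weeks on the C57BL/6JOlaHsd background. Treated knockout hearts came from OMA1 knockout mice given isoproterenol, a β-adrenergic agonist, at 10 mg/kg per day from implanted minipumps for 7 days. Treated wild-type hearts came from wild-type mice given the same drug in the same way. Untreated knockout hearts came from OMA1 knockout mice labelled as non-treated, and whether these carried a pump is not stated. Both knockout groups thus share the deletion. OMA1 is a metalloprotease of mitochondria that is switched on when they are stressed. How the knockout was made is not given in the sources used here, and no hearts of untreated wild-type mice were analysed here.

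Insulin and IGF-1 bind receptor tyrosine kinases, which phosphorylate the insulin receptor substrates. These recruit phosphatidylinositol 3-kinase, whose lipid product activates AKT. AKT phosphorylates FoxO factors and keeps them out of the nucleus, and in striated muscle nuclear FoxO raises the transcription of ubiquitin ligases that mark contractile proteins for breakdown. In the heart the pathway sets glucose uptake and cell size.

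The RNA levels of 8 of the 10 genes had the same order of group means, lowest in treated knockout hearts, higher in treated wild-type hearts and highest in untreated knockout hearts. That order held for 25.3% of all 8543 genes tested, a share that leaves out Irs2, which is among the 8 but was not tested. Irs1 moved most: its mean in treated knockout hearts was 43.3% of the treated wild-type mean and 25.5% of the untreated knockout mean. Foxo1 stood apart: its treated knockout mean was 109% of the treated wild-type and 102% of the untreated knockout mean, and no comparison called it. Values below are the deposited normalized counts, and differences are on the log2(value + 1) scale with the standard error (SE) of limma's fit. A gene is called where its p-value, adjusted over all genes tested, is under 0.05. Irs2 and Igf1r lay below the minimum for testing, which asked 3 of the 9 libraries to reach a value of 10, so 8 of the 10 genes were tested.

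Reads per library ranged from 6.93e+06 to 1.22e+07. Oma1 itself stood at 6.24 ± 0.502 in treated knockout, 19.9 ± 2.16 in treated wild-type and 7.42 ± 1.46 in untreated knockout hearts (SD, n = 3 each), lower in both knockout groups. All 10 markers of cardiomyocytes were present in every group, with summed levels of 45000 to 47800 in treated knockout, 42600 to 49200 in treated wild-type and 49700 to 53800 in untreated knockout hearts. The share of mitochondrially encoded RNA was 38.2% to 42.5% in treated knockout, 36.7% to 37.3% in treated wild-type and 33.9% to 34.6% in untreated knockout hearts, with treated knockout replicate 2 the highest. Markers of atrial and fat tissue differed between the groups. The summed level of 6 atrial markers was 92.5 to 126 in treated knockout, 58.8 to 864 in treated wild-type and 1160 to 2620 in untreated knockout hearts. The highest treated wild-type sum, 864 in replicate 3, was mostly Nppa, at 842. The sum of the 5 adipocyte markers in the table was 0 to 0.725 in treated knockout, 0.115 to 0.288 in treated wild-type and 20.5 to 80.1 in untreated knockout hearts. In bulk tissue, fewer cells of a type and less RNA per cell cannot be told apart.

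**Figure D1:**
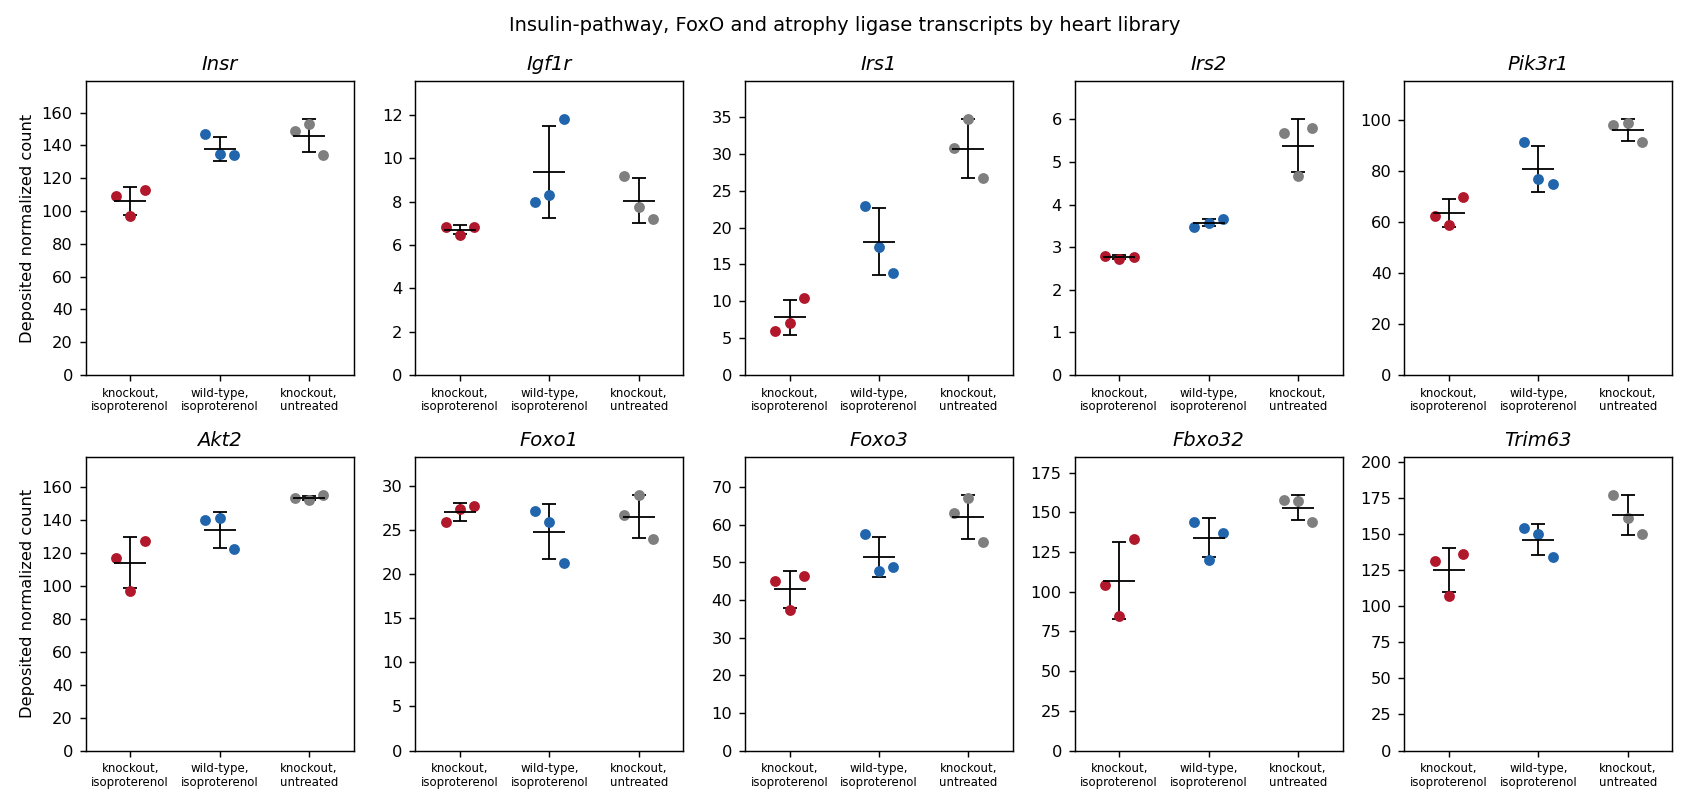
Deposited normalized count (vertical axes, from 0) of each of the 10 genes in every library, with treated knockout, treated wild-type and untreated knockout hearts from left to right; points are libraries in the order of replicates 1 to 3, bars the mean and the SD of 3. In 9 of the 10 panels the treated knockout mean is the lowest, and Foxo1 is the exception.

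Of the receptors, the insulin receptor gene Insr was lower in treated knockout hearts than in either other group. It is the receptor tyrosine kinase for insulin and lies on the minus strand of chromosome 8 (3122061 to 3279617, GRCm38). Its values were 109, 97.0 and 113 in treated knockout, 147, 135 and 134 in treated wild-type and 149, 153 and 134 in untreated knockout hearts. All 3 treated knockout libraries lay below all others, while the other groups overlapped. Insr fell by 0.38 ± 0.08 (SE) against treated wild-type hearts (adjusted p = 0.0053) and by 0.45 ± 0.08 against untreated knockout hearts (adjusted p = 0.00046). Treated wild-type hearts differed from untreated knockout hearts by -0.07 ± 0.08, with a 95% interval of -0.25 to 0.10 (adjusted p = 0.52). After each library was corrected for transcript length and GC content, the difference between the treated groups was -0.22 and not called (adjusted p = 0.058), and that between the knockout groups stayed called.

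Igf1r, the receptor for IGF-1 and a relative of the insulin receptor (chromosome 7, 67952827 to 68233668, plus strand), was scarce. It stood at 6.84, 6.46 and 6.81 in treated knockout, 7.98, 8.30 and 11.8 in treated wild-type and 9.18, 7.75 and 7.18 in untreated knockout hearts. These values rest on 52 to 123 reads per library. The treated knockout libraries were the 3 lowest of the 9, and the other groups overlapped. With no filter on low values, Igf1r differed by -0.41 between treated knockout and treated wild-type hearts (adjusted p = 0.071) and by -0.22 between treated and untreated knockout hearts (adjusted p = 0.24). It differed by 0.18 between treated wild-type and untreated knockout hearts (adjusted p = 0.39).

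The insulin receptor substrates are the docking proteins that link the receptor to phosphatidylinositol 3-kinase. Irs1 (chromosome 1, 82233101 to 82291416, minus strand) stood at 5.91, 7.09 and 10.5 in treated knockout, 22.9, 17.4 and 13.8 in treated wild-type and 30.8, 34.7 and 26.7 in untreated knockout hearts. No library of any group overlapped those of another group. In reads, these values are 57 to 129 in treated knockout, 144 to 250 in treated wild-type and 193 to 282 in untreated knockout libraries. Irs1 fell by 1.12 ± 0.19 against treated wild-type hearts (adjusted p = 0.0016), where only 18 of the 8543 genes tested had a lower log2 difference. It fell by 1.87 ± 0.19 against untreated knockout hearts (adjusted p = 5.8e-06), with 22 genes lower. Treated wild-type hearts were also lower than untreated knockout hearts, by a log2 difference of -0.75 ± 0.19 (adjusted p = 0.0076). The calls of Irs1 held in every alternative in which it was tested, with differences of -1.32 to -0.65 between the treated groups and -2.08 to -1.20 between the knockout groups. The smallest of both came with a pseudocount of 10, and after length and GC correction it stayed called between the treated groups (adjusted p = 0.005).

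Irs2, the other widely expressed substrate (chromosome 8, 10984681 to 11008458, minus strand), had the same order at a lower level. Its values were 2.80, 2.71 and 2.76 in treated knockout, 3.48, 3.57 and 3.65 in treated wild-type and 5.68, 4.67 and 5.80 in untreated knockout hearts. The 3 groups did not overlap. Only 26 to 47 reads per library stood behind them, fewer than for any other of the 10 genes. With no filter on low values, Irs2 was lower in treated than in untreated knockout hearts by a log2 difference of -0.76 (adjusted p = 0.00069). It was also lower in treated wild-type than in untreated knockout hearts (-0.48, adjusted p = 0.022). Between treated knockout and treated wild-type hearts it differed by -0.28 (adjusted p = 0.18).

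The 250 bases before the start of both substrate genes are shown. They are given 5′ to 3′ on the minus strand of GRCm38.p6, from RefSeq, at chr1:82291440-82291689 for Irs1 and chr8:11008930-11009179 for Irs2. Capitals mark CACGTG, the E-box, which reads the same on both strands.
Irs1: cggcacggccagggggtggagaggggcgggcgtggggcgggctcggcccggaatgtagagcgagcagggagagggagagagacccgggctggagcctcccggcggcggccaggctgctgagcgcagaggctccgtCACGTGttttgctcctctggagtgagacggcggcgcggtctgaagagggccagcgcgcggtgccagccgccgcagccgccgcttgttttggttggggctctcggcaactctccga
Irs2: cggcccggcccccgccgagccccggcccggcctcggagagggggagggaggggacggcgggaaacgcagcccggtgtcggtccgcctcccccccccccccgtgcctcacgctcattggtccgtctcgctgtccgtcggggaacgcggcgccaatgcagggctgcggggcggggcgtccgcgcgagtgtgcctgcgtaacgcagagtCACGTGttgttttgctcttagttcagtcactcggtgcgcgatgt
Each holds 1 E-box, 115 bases before the start in Irs1 and 44 bases before it in Irs2. Windows of the same length before 32851 RefSeq gene starts held CACGTG in 6.02%. Of the 10 genes, 8 matched an entry by symbol, with 12 windows in all, and 2 of the 12 held an E-box. The windows of Pik3r1, Akt2, Foxo3 and Trim63, which had the same order of group means as the substrates, held no E-box. None of the 12 held TGACGTCA, the cAMP response element (CRE), which 1.55% of all windows did. These matches are a description of letters and do not show a binding site.

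Downstream of the substrates, Pik3r1 encodes the p85α regulatory subunit of phosphatidylinositol 3-kinase (chromosome 13, 101680563 to 101768217, minus strand). It stood at 62.4, 58.9 and 69.7 in treated knockout, 91.2, 76.7 and 74.8 in treated wild-type and 98.2, 98.9 and 91.3 in untreated knockout hearts. The 3 groups did not overlap; treated wild-type replicate 1, at 91.2, lay next to untreated knockout replicate 3, at 91.3. Pik3r1 fell by 0.34 ± 0.09 against treated wild-type hearts (adjusted p = 0.014) and by 0.59 ± 0.09 against untreated knockout hearts (adjusted p = 0.00013). Correction for length and GC content ended the call between the treated groups (-0.18, adjusted p = 0.13). Leaving out treated wild-type replicate 1 (-0.25, adjusted p = 0.062) ended it too, as did leaving out replicate 2 of the treated knockout hearts (-0.29, adjusted p = 0.054). Pik3r1 was lower in treated wild-type than in untreated knockout hearts by a log2 difference of -0.25 ± 0.09 (adjusted p = 0.045). Leaving out any 1 of 6 libraries ended this call: replicates 2 and 3 of the treated wild-type hearts, all 3 untreated knockout replicates, and replicate 1 of the treated knockout hearts (adjusted p = 0.055 to 0.13).

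Akt2, the AKT kinase most tied to insulin-driven glucose uptake (chromosome 7, 27591552 to 27640826, plus strand), stood at 117, 96.8 and 127 in treated knockout, 140, 141 and 122 in treated wild-type and 153, 152 and 155 in untreated knockout hearts. All untreated knockout libraries lay above the other 6, which overlapped. Akt2 fell by 0.44 ± 0.09 in treated against untreated knockout hearts (adjusted p = 0.0018). Between the treated groups it differed by -0.24 ± 0.09 and was not called (95% interval -0.45 to -0.04, adjusted p = 0.070). Without treated wild-type replicate 3 or treated knockout replicate 3 it was called there (-0.31 and -0.33, adjusted p = 0.026 and 0.029). Without treated knockout replicate 2, the lowest library, the difference was -0.13 (adjusted p = 0.26). Treated wild-type hearts differed from untreated knockout hearts by -0.19 ± 0.09 (adjusted p = 0.13), and it was called without treated knockout replicate 2 (adjusted p = 0.045).

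The FoxO factors are forkhead transcription factors that AKT restrains. Foxo1 (chromosome 3, 52268336 to 52353221, plus strand) stood at 25.9, 27.4 and 27.7 in treated knockout, 27.1, 25.9 and 21.2 in treated wild-type and 26.7, 28.9 and 24.0 in untreated knockout hearts. All 3 groups overlapped. Its log2 differences were 0.13 ± 0.10 between treated knockout and treated wild-type hearts (95% interval -0.09 to 0.34, adjusted p = 0.35) and 0.03 ± 0.10 between treated and untreated knockout hearts (-0.19 to 0.24, adjusted p = 0.83). For treated wild-type over untreated knockout hearts it was -0.10 ± 0.10 (-0.31 to 0.11, adjusted p = 0.47).

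Foxo3 (chromosome 10, 42181841 to 42276755, minus strand) followed the order of most of the other genes. Its values were 45.0, 37.3 and 46.5 in treated knockout, 57.6, 47.7 and 48.8 in treated wild-type and 63.2, 67.1 and 55.5 in untreated knockout hearts. Treated knockout libraries lay below all others, while treated wild-type replicate 1 overlapped the untreated knockout hearts. Foxo3 fell by 0.52 ± 0.10 in treated against untreated knockout hearts (adjusted p = 0.00096). Against treated wild-type hearts it differed by -0.26 ± 0.10 and was not called (95% interval -0.48 to -0.03, adjusted p = 0.080). Between treated wild-type and untreated knockout hearts the difference was -0.27 ± 0.10 (adjusted p = 0.063). It was called there on leaving out treated wild-type replicate 1 (-0.35, adjusted p = 0.027), replicate 3 of the untreated knockout hearts (-0.34, adjusted p = 0.039) or replicate 2 of the treated knockout hearts (-0.27, adjusted p = 0.033).

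The atrophy ligases were lower with treatment in knockout hearts. Fbxo32 encodes atrogin-1, the F-box subunit of a muscle ubiquitin ligase (chromosome 15, 58175879 to 58214932, minus strand). It stood at 104, 84.5 and 133 in treated knockout, 144, 120 and 137 in treated wild-type and 158, 157 and 144 in untreated knockout hearts. Its spread was widest in treated knockout hearts, at 107 ± 24.2 (SD, n = 3), and replicate 3 there lay within the treated wild-type range. Fbxo32 fell by 0.53 ± 0.13 in treated against untreated knockout hearts (adjusted p = 0.0034). Against treated wild-type hearts it differed by -0.34 ± 0.13 (95% interval -0.62 to -0.07, adjusted p = 0.058). Leaving out replicate 3 of the treated knockout hearts made it -0.51 and a call (adjusted p = 0.0064), and leaving out their replicate 2 made it -0.19 (adjusted p = 0.24). For treated wild-type over untreated knockout hearts it was -0.19 ± 0.13 (adjusted p = 0.27).

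Trim63 encodes MuRF1, a RING-finger ligase of the sarcomere, and lies on chromosome 4 (134315120 to 134329629, plus strand), 31 Mb from Oma1. Its values were 131, 107 and 136 in treated knockout, 154, 150 and 134 in treated wild-type and 177, 161 and 150 in untreated knockout hearts. Treated wild-type hearts overlapped both other groups, and all treated knockout libraries lay below all untreated knockout libraries. Trim63 fell by 0.39 ± 0.10 in treated against untreated knockout hearts (adjusted p = 0.0047). Against treated wild-type hearts it differed by -0.23 ± 0.10 (95% interval -0.44 to -0.03, adjusted p = 0.086). Correction for length and GC content made it a call (-0.32, adjusted p = 0.033), as did leaving out replicate 3 of the treated wild-type hearts (-0.30, adjusted p = 0.038). Leaving out replicate 2 of the treated knockout hearts gave -0.13 (adjusted p = 0.32). For treated wild-type over untreated knockout hearts it was -0.15 ± 0.10 (adjusted p = 0.25).

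The 250 bases before the start of Trim63 are shown because this ligase is a textbook target of FoxO factors. They lie at chr4:134314870-134315119 on the plus strand of GRCm38.p6, from RefSeq. Capitals mark TGTTTAC, the reverse complement of the FoxO core GTAAACA.
Trim63: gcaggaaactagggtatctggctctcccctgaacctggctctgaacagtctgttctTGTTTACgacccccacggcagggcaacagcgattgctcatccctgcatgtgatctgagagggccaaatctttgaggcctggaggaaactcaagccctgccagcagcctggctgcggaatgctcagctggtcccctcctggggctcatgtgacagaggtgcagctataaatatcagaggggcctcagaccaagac
The core lies 194 bases before the start. On either strand it was found in 1 of the 12 windows of these genes and in 3.17% of all windows, and it did not overlap the other motifs searched. A match is no evidence that a FoxO factor binds there.

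**Figure D2:**
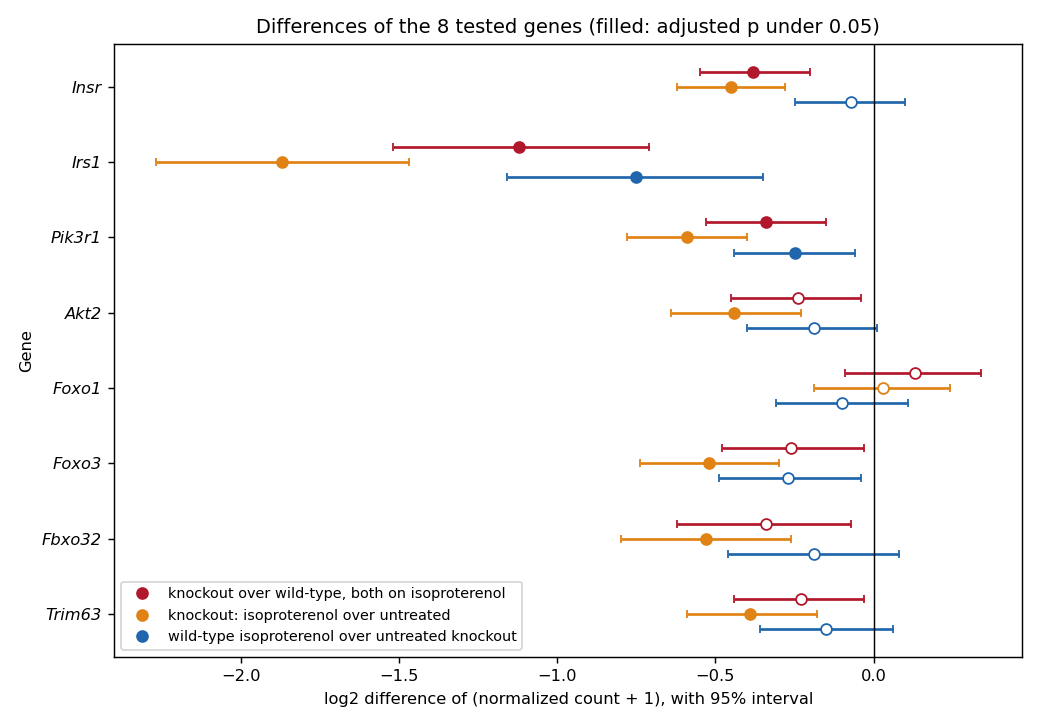
Log2 difference of (normalized count + 1) on the horizontal axis for each of the 8 tested genes, in 3 comparisons; bars are 95% intervals of limma's fit, and filled points have an adjusted p under 0.05. Irs1 lies farthest from 0 in each comparison, and all 3 intervals of Foxo1 cross 0.

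Between treated knockout and treated wild-type hearts, which asks what loss of OMA1 changes under adrenergic load, 3 of the 8 tested genes were lower and 0 higher: Insr, Irs1 and Pik3r1. Of all genes tested, 15.9% were called lower and 12% higher in this comparison. All 3 treated knockout libraries lay below all 3 treated wild-type libraries for 6 of the 10 genes and 4 of the 8 tested, against 23.6% of all genes tested. The median difference of the 8 genes was -0.30, against -0.01 for all genes. The count was 5 without treated wild-type replicate 3 or treated knockout replicate 3 and 2 without treated wild-type replicate 1 or treated knockout replicate 2. In the same order, 1401, 1299, 902 and 800 of all 8543 genes tested were called lower, against 1356 with all libraries. Calls did not separate the genes by size of difference: Fbxo32, which was not called, differed by -0.34, as did Pik3r1, which was. Adipocyte markers were near 0 in both treated groups. The 10 endothelial markers summed to 1990 to 2400 in treated knockout and 1550 to 1700 in treated wild-type hearts, with 8 of 10 called higher. Of the 9 fibroblast markers 2 were called higher and 0 lower. Of the 10 cardiomyocyte markers 3 were called lower and 2 higher. The part of these markers in the result was not tested.

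Transcript length and single libraries moved with these differences. Of the 8 genes, 6 have a longest annotated transcript in the top 20% of tested genes by length, from 5652 bases upwards: Insr, Irs1, Pik3r1, Foxo1, Foxo3 and Fbxo32. Of those long transcripts 28.5% were called lower and 6.01% higher in treated knockout against treated wild-type hearts, with a median difference of -0.12. Among the shortest 20%, up to 2106 bases and holding Trim63, 3.06% were lower and 22.4% higher, with a median of 0.13. With length and GC content corrected, 2 of the 8 genes were called lower, Irs1 and Trim63, against 11.4% of all genes. Treated knockout replicate 2 was the lowest of its group for 8 of the 10 genes and for 45.3% of all genes tested. Its erythroid markers were the highest of its group, with Hba-a1 at 1530 against 340 and 448. Alas2 was at 85.9 there, against 17.3 and 23.2, and the part of these markers was not tested. Treated wild-type replicate 3 was the lowest of its group for 6 of the 10, Insr, Irs1, Pik3r1, Akt2, Foxo1 and Trim63, and for 42.2% of all genes tested. Its atrial marker sum was 864, against 58.8 and 94 in the other treated wild-type libraries. Nppa made up 842 of it, while Myl7 (0.192), Myl4 (1.06), Sln (0) and Bmp10 (0) were at or near 0. Dkk3 was 20.6, against 5.32 and 6. Fibroblast markers were mostly higher in that library, as with Postn (1040 against 198 and 270) and Col1a1 (458 against 158 and 165). Gsn was lower (586 against 782 and 763). The part of these markers in the result was not tested. With libraries scaled to equal totals of nuclear genes, the same 3 genes were called, with differences of -0.33 for Insr, -1.07 for Irs1 and -0.29 for Pik3r1.

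Between treated and untreated knockout hearts, which sets isoproterenol from minipumps against no treatment in hearts without OMA1, 7 of the 8 tested genes fell and none rose. They were Insr, Irs1, Pik3r1, Akt2, Foxo3, Fbxo32 and Trim63, while Foxo1 was not called. Of all genes tested, 27.4% were called lower and 23.9% higher. No treated library reached the untreated range for 9 of the 10 genes and 7 of the 8 tested, against 33.4% of all genes tested with all treated libraries lower. The median difference of the 8 genes was -0.49, against -0.02 for all genes. Among the long transcripts 33.7% were called lower and 21.3% higher. With length and GC content corrected the count was again 7, against 28.1% of all genes called lower. It was also 7 without any 1 of the 9 libraries, where 1926 to 2478 of all genes tested were called lower.

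All 7 treated knockout means lay between 25.5% and 76.6% of the untreated knockout means. The atrial and adipocyte markers given above also differed between these groups, and their part in the result was not tested. The adipocyte sum was 27.3, 20.5 and 80.1 in untreated knockout replicates 1, 2 and 3. Replicate 3 was the lowest of its group for 8 of the 10 genes, all but Akt2 and Irs2, and for 36.9% of all genes tested. Endothelial markers summed to 1990 to 2400 in treated and 1100 to 1210 in untreated knockout hearts, with 10 of 10 called higher, while all 6 atrial markers were called lower. Of the 9 fibroblast markers 7 were called higher. Of the 10 cardiomyocyte markers 4 were called lower and 0 higher.

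Between treated wild-type and untreated knockout hearts genotype and treatment differ together. In this comparison 2 of the 8 genes were lower, Irs1 and Pik3r1, and none was higher, where 16.9% of all genes tested were called lower and 16.4% higher. All 3 treated wild-type libraries lay below all 3 untreated knockout libraries for 4 of the 10 genes and 3 of the 8 tested, against 24.1% of all genes tested. The median difference of the 8 genes was -0.19, against 0.01 for all genes. Among the long transcripts 11.5% were called lower and 21% higher. With length and GC content corrected the count was again 2, against 15.3% of all genes called lower. Leaving out treated wild-type replicate 2 or 3, untreated knockout replicate 1 or 2, or treated knockout replicate 1 gave a count of 1, and leaving out treated knockout replicate 2 gave 4. Over all genes tested, 988 to 1343 were called lower where the count was 1 and 1607 where it was 4, against 1440 with all libraries. The 6 atrial markers were called lower here too, and 8 of 9 fibroblast and 8 of 10 endothelial markers higher, and their part was not tested. The 3 comparisons share their libraries, so their values are not independent of one another.

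**Figure D3:**
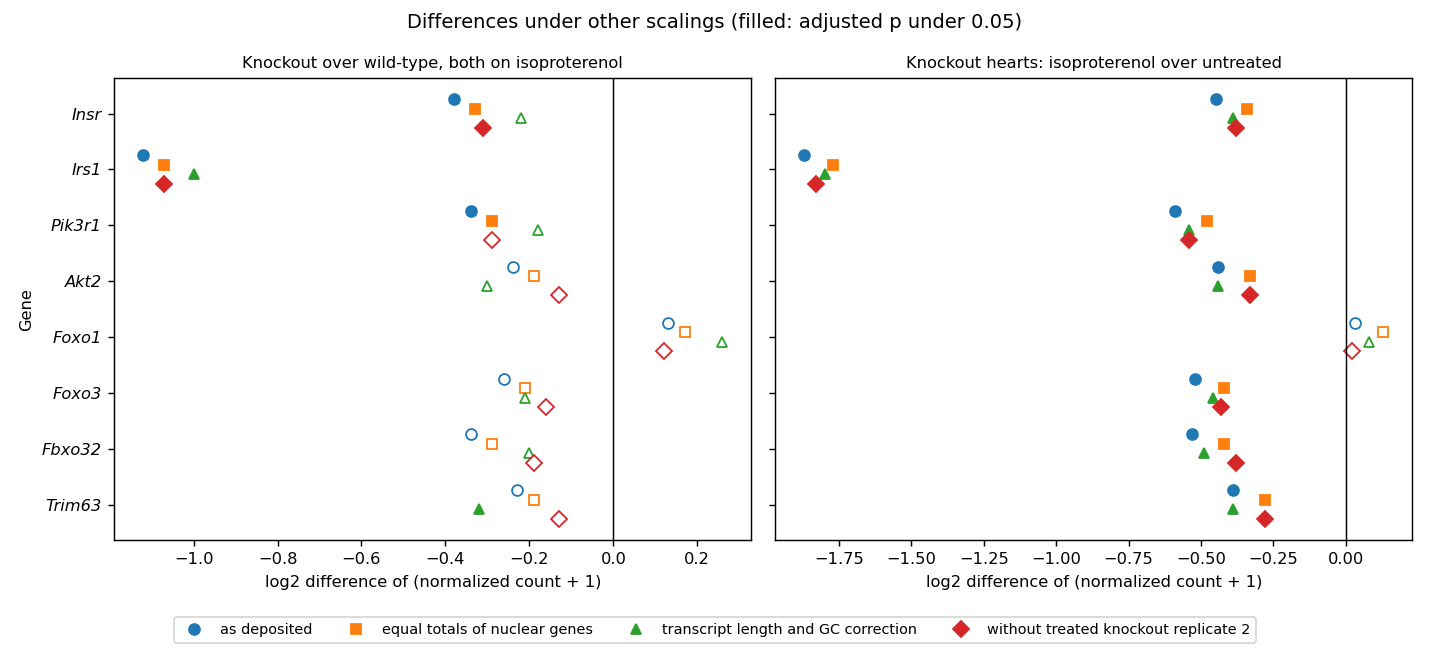
Log2 difference (horizontal axes) of the 8 tested genes as deposited, with libraries scaled to equal totals of nuclear genes, after length and GC content were corrected for, and without treated knockout replicate 2; filled symbols have an adjusted p under 0.05. On the left, treated knockout over treated wild-type, Irs1 is called under all 4 and Insr ranges from -0.38 to -0.22; on the right, treated over untreated knockout, 7 of 8 genes are called under all 4.

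Levels were also set side by side per length, as the mean normalized count per kilobase of the longest annotated transcript. Trim63 was the highest of the 10 at 66.1 ± 8.06 in treated knockout, 77.5 ± 5.71 in treated wild-type and 86.2 ± 7.34 in untreated knockout hearts (SD, n = 3). Akt2 followed at 25.0, 29.5 and 33.7 and Fbxo32 at 15.3, 19.2 and 21.9, in the same order of groups. Insr was at 11.4 in treated knockout, 14.8 in treated wild-type and 15.6 in untreated knockout hearts, far above the related Igf1r at 0.588, 0.821 and 0.704. Both substrates lay below the insulin receptor in all 3 groups. Irs1 was at 0.855 in treated knockout, 1.97 in treated wild-type and 3.36 in untreated knockout hearts, and Irs2 at 0.436, 0.565 and 0.852. Foxo3 exceeded Foxo1 in all 3 groups, at 6.27 against 3.12 in treated knockout, 7.50 against 2.86 in treated wild-type and 9.05 against 3.06 in untreated knockout hearts.

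The rest of the pathway was read from 7 lists holding 142 distinct genes, of which 134 are in the table and 117 were tested. Between treated knockout and treated wild-type hearts 29 of the 117 were lower and 2 higher, 24.8% and 1.71%, against 15.9% and 12% of all genes tested and 28.5% and 6.01% of the long transcripts. The median difference was -0.10. With length and GC content corrected 22 were lower (18.8%, against 11.4% of all genes) and 0 higher. Deptor, an inhibitor of mTOR (-0.21, adjusted p = 0.19), Mtor, the growth kinase itself (-0.21, adjusted p = 0.055), Ulk2, an autophagy kinase (-0.19, adjusted p = 0.079) and Fbxo30, an F-box protein (-0.21, adjusted p = 0.093) were among those no longer called. Of the 117, 35 are among the long transcripts. Among the kinases and phosphatases around AKT, 2 of 16 were lower, 12.5%, below the share of all genes. Pdpk1, the kinase PDK1 that phosphorylates AKT in its activation loop, averaged 33.2 ± 2.68 in treated knockout and 49.7 ± 2.96 in treated wild-type hearts (log2 difference -0.57 ± 0.08, adjusted p = 0.00067). Inpp4b, a lipid phosphatase, averaged 14.9 ± 4.75 and 34.6 ± 3.95 (adjusted p = 0.00079). Of 14 adaptors and brakes at the receptor 5 were lower, 35.7%. Among them were Ptpn11, the phosphatase SHP2 (-0.43 ± 0.07), and Sos2, an exchange factor for Ras (-0.49 ± 0.09). Of 8 ligands and binding proteins only Igf2r, the receptor that clears IGF-2, was lower, also 12.5%, at 154 ± 15.6 in treated knockout and 205 ± 14.7 in treated wild-type hearts (adjusted p = 0.0039). A further gene of this list was called higher under 13 of 21 other settings that kept all libraries. Leaving out treated wild-type replicate 3 called 2 higher, and leaving out untreated knockout replicate 2 or 3 called 1. Over all genes tested, 979, 920 and 982 were then called higher, against 1023 with all libraries.

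In the list of mTOR, GSK3 and effectors of AKT 6 of 20 genes were lower in that comparison. That is 30%, against 15.9% of all genes tested and 28.5% of the long transcripts. Gsk3b, a kinase of glycogen synthase, differed by -0.46 ± 0.08, and Eif4ebp2, a repressor of translation, by -0.43 ± 0.10. Of 22 other muscle ubiquitin ligases and atrophy genes 7 were lower and 2 higher, 31.8% and 9.09%. Trim55, which encodes the MuRF2 relative of MuRF1, averaged 25.8 ± 3.53 in treated knockout and 46.0 ± 5.75 in treated wild-type hearts (-0.82 ± 0.11, adjusted p = 0.00052). The ligase genes Wwp1 (-0.50 ± 0.08), Fbxo40 (-0.44 ± 0.07) and Nedd4 (-0.37 ± 0.07) were also lower. Fbxo40 encodes a muscle F-box protein that targets IRS1. Of 29 genes described as FoxO targets 7 were lower, 24.1%, and 0 higher, with none below -0.33. Of 10 other FoxO factors and cofactors 1 was lower, Ywhag (-0.32 ± 0.08), a share under that of all genes. These counts changed with single libraries, as did the count over all genes. Without treated knockout replicate 2, 1 FoxO target, 3 of the adaptors and 3 of the mTOR, GSK3 and AKT effector list were called. Of the ligases 5 were then lower with 0 higher. Without treated wild-type replicate 1 they were 3 FoxO targets, 3 adaptors and 2 of the effector list. Without treated wild-type replicate 2 they were 2 FoxO targets and 3 of the effector list. Without treated knockout replicate 3 there were 3 of the effector list. Of all 8543 genes tested, 1356 were called lower with all libraries. That became 800 without treated knockout replicate 2, 902 and 973 without treated wild-type replicates 1 and 2, and 1299 without treated knockout replicate 3.

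Between treated and untreated knockout hearts 50 of the 117 genes were lower and 16 higher, 42.7% and 13.7%, against 27.4% and 23.9% of all genes tested. The median was -0.18, and with length and GC content corrected 52 were lower and 16 higher. The kinases and phosphatases around AKT, with 31.2% lower and 25% higher, were near the shares of all genes, and so were the other FoxO factors in the lower direction, with 30%. Genes described as FoxO targets were lower for 16 and higher for 4 of 29. Sesn1, a stress-responsive brake on mTOR, stood at 56.3 ± 3.92 in treated and 106 ± 1.10 in untreated knockout hearts (-0.90 ± 0.07, adjusted p = 1.1e-06). Txnip, an inhibitor of glucose uptake, stood at 361 ± 73.9 and 746 ± 71.2, and Fbxo21, an F-box protein, at 21.1 ± 2.93 and 41.7 ± 2.72. Cdkn1a, the cell cycle inhibitor p21, rose by 1.35 ± 0.16, to 37.4 ± 7.21 in treated against 14.2 ± 3.77 in untreated knockout hearts. Members of this list therefore went both ways.

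In the list of mTOR, GSK3 and effectors of AKT 11 of 20 genes were lower and 1 higher in knockout hearts on isoproterenol. These are 55% and 5%, against 27.4% and 23.9% of all genes tested. Deptor fell by 0.74 ± 0.11 (-0.47 with a pseudocount of 10), Eif4ebp1, a repressor of translation, by 0.50 ± 0.09 and Tbc1d4, the AKT substrate that gates GLUT4 traffic, by 0.45 ± 0.08. Of the 16 kinases and phosphatases around AKT 5 were lower and 4 higher. Pdpk1 fell by 0.50 ± 0.08 and Inppl1, the lipid phosphatase SHIP2, by 0.54 ± 0.07. Of the 14 adaptors 5 were lower and 4 higher, 35.7% and 28.6%. Grb2, an adaptor to the Ras pathway, was at -0.53 ± 0.07 and Gab1, a docking protein, at -0.49 ± 0.10.

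Ligands and binding proteins were higher for 2 and lower for 1 of 8 between the knockout groups. These are 25% and 12.5%, against 23.9% and 27.4% of all genes tested. Igfbp7 rose by 1.24 ± 0.15, to 234 ± 47.7 in treated against 97.2 ± 4.33 in untreated knockout hearts, and Igfbp3 fell by 1.12 ± 0.21 (-0.72 with a pseudocount of 10). Igf1, the ligand of the IGF-1 receptor, rose by 0.45 ± 0.15 (adjusted p = 0.021). That call was lost without untreated knockout replicate 1 or 2 or treated knockout replicate 1 (adjusted p = 0.067 for each). Other ligases and atrophy genes were lower for 10 and higher for 1 of 22, led by Trim55 (-0.86 ± 0.11), Wwp1 (-0.60 ± 0.08) and Fbxo40 (-0.53 ± 0.07). That count was 6 lower and 1 higher without untreated knockout replicate 1 and 7 lower with 0 higher without replicate 2. Over all genes tested, 2345 were called lower with all libraries, 2044 without untreated knockout replicate 1 and 1926 without replicate 2. Other FoxO factors and cofactors were lower for 3 and higher for 1 of 10, with the 14-3-3 gene Ywhaz, whose protein family holds FoxO in the cytoplasm, higher by 0.57 ± 0.06 and its relative Ywhag lower by a log2 difference of -0.45 ± 0.08.

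**Figure D4:**
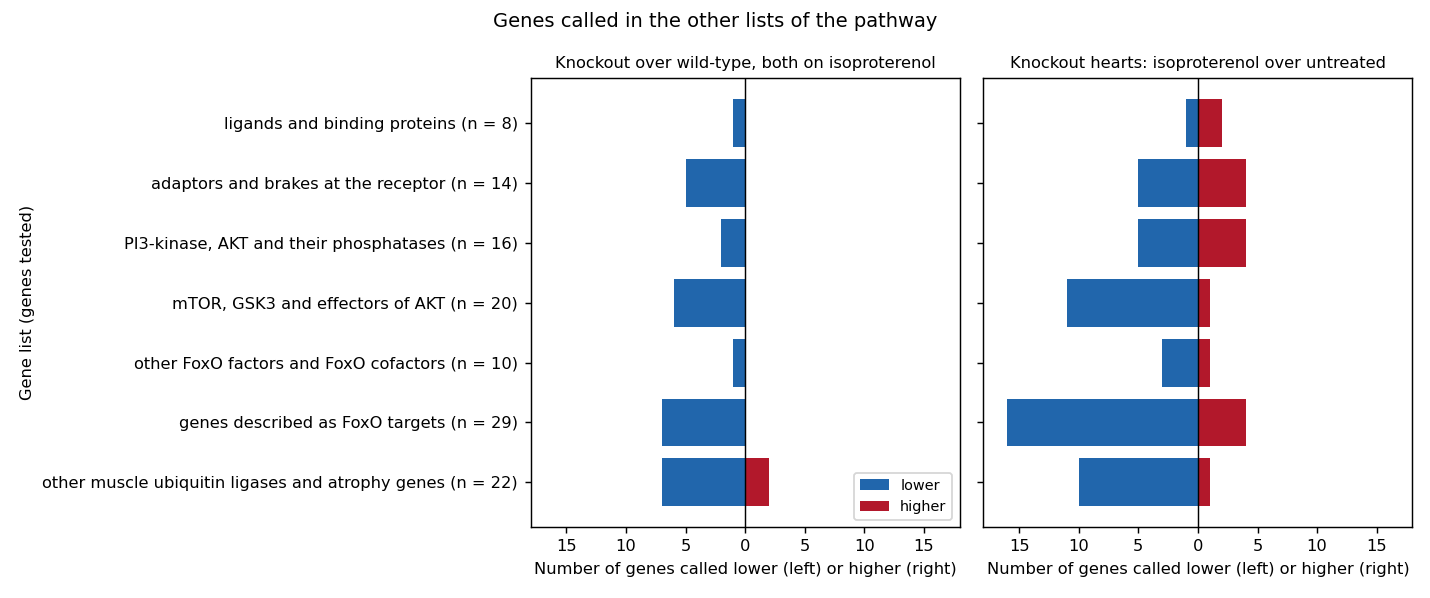
Number of genes called lower (bars to the left) or higher (bars to the right) at an adjusted p under 0.05 in each of 7 gene lists, with the number tested in brackets; left panel, treated knockout over treated wild-type, right panel, treated over untreated knockout. On the left the ligase list alone has genes called higher (2 of 22); on the right every list has genes in both directions.

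Genes with the most similar pattern were sought by the root-mean-square difference of centred log2 values over the 9 libraries, where 0 would be the same pattern. Nearest to Irs1 were Gpam, an acyltransferase of triglyceride synthesis (0.223), and Pdp2, a phosphatase of pyruvate dehydrogenase (0.229). Gpam stood at 48.8 ± 10.5 in treated knockout, 107 ± 9.13 in treated wild-type and 163 ± 13.9 in untreated knockout hearts. Other genes of the set had smaller differences from their neighbours. The measure is not scaled by how much a gene varies, so its size cannot be compared between genes as closeness of pattern. Nearest to Foxo3 were Dhdh (0.0551) and Nipal3 (0.0601), nearest to Foxo1 Eif2b4 (0.0453) and Tmem147 (0.0494). For Fbxo32 they were Svip (0.0717) and Dolk (0.0832), and for Trim63 Nceh1 (0.0325) and Mylk3, a cardiac myosin light chain kinase (0.0515). Irs2 lay below the minimum, so no neighbour was sought for it. The 9 libraries share groups, depth and tissue makeup, so likeness here describes these hearts only.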

How the data were processed

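Heart RNA was extracted with TRIzol, purified on columns and sequenced from TruSeq libraries, per the labels' protocols. The submitters' processing notes name cutadapt, RSEM 1.17, limma and the build GRCm38, while no aligner is named in the sources used here. The authors deposited signal values that the labels name as normalized expected counts, whose scaling is not described there. Within 0.02 reads 100% of them were whole multiples of 1 step per library, from which whole reads were recovered. With limma 3.58.1 (R 4.3.3), log2(value + 1) was fitted over all 9 libraries for the 8543 genes that reached 10 in 3 or more of them, using a group-means model whose prior variance follows the mean. All tests were two-sided, with Benjamini-Hochberg adjustment across the 8543. The 95% intervals come from that fit. Alternatives included edgeR 4.0.16 and DESeq2 1.42.0 on the recovered reads and a correction of each library for length and GC content by natural splines (5 degrees of freedom each). The fits were tested on simulated data. Positions and lengths came from GENCODE M21 on GRCm38, where 13385 IDs matched. The genes, the lists and the motifs were chosen with earlier results of these data known. From each list, up to 4 genes with the smallest p between the treated groups, and up to 4 between the knockout groups, could be named. Reads carry no molecular identifiers, and since the labels give no animal numbers, p-values speak of the spread among these libraries, which may be technical.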

Additional observations from a re-analysis of the deposited data

How the results depend on the processing

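Between treated knockout and treated wild-type hearts the 3 genes called became 7 at a threshold of 0.10, and 2 to 5 with 1 library left out. Over all 8543 genes tested, 1788 were called lower at 0.10 and 800 to 1401 with 1 library left out, against 1356. Between treated and untreated knockout hearts the count was 7 with any library left out. Between treated wild-type and untreated knockout hearts the count of 2 became 1 under several settings. With a value of at least 50 required, Irs1 was not tested, as its highest value was 34.7. At a threshold of 0.01, Pik3r1 was not called, with an adjusted p of 0.045. The count was also 1 with equal totals of nuclear genes, without the mean-variance trend, with the replicate number as a block and by DESeq2. With 1 library left out it was 1 to 4, and the cause of these further changes was not tested. Over all genes, the 2379, 4388 and 2839 calls became 1236, 1765 and 1152 when a value of at least 50 was required. That setting tested 2661 genes instead of 8543, so the share called was larger in each comparison. At a threshold of 0.01 they were 959 between the treated groups and 1642 between treated wild-type and untreated knockout hearts. With the replicate number as a block and length and GC correction together 1539 were called between the treated groups. With 1 library left out these counts ranged from 1342 to 2380, 3630 to 4624 and 2035 to 3114. The count of 1342 came without treated knockout replicate 2. Foxo1, called in no comparison, changed sign to -0.04 without untreated knockout replicate 3 and to -0.0029 with reads thinned to equal depth, an alternative chosen after seeing the data, both between the knockout groups, where leaving out 1 library gave -0.04 to 0.09. Between treated wild-type and untreated knockout hearts it was 0.0033 without treated wild-type replicate 3, in a range of -0.17 to 0.0033. For same-numbered libraries, deviations from the group mean had correlations of -0.14 to 0.18, over 0.1 in 3 of 9 pairs. Libraries with different numbers gave -0.25 to 0.23. With 3 libraries per group these values cannot show whether same-numbered libraries share a preparation. With the replicate number as a block 4 genes were called between the treated groups, Fbxo32 being added (adjusted p = 0.048), and 7 between the knockout groups. By edgeR the counts were 3, 7 and 2, where 14.8%, 25.8% and 16.5% of all genes were called lower. Irs2 and Igf1r rest on 26 to 123 reads per library.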
